A study of Homo sapiens with 6 samples.

Results

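Aldehyde dehydrogenases are enzymes that oxidise aldehydes to carboxylic acids with NAD+ or NADP+. The genes described here are 10 human members of the family, taken by gene name from a table of 58051 genes: ALDH1A1, ALDH1A3, ALDH1B1, ALDH2, ALDH3A2, ALDH3B1, ALDH4A1, ALDH7A1, ALDH9A1 and ALDH18A1. All 10 names were found, each on 1 row. They were measured in wild-type MDA-MB-231 cells, a breast cancer line of triple-negative type. The cells were stained with recombinant human FABP4, a fatty acid carrier, carrying the dye FITC, and sorted into those that bound it (FABP4 binding, 3 libraries) and those that did not (FABP4 non-binding, 3 libraries). Ribosomal RNA-depleted total RNA was sequenced, and the deposited values are TPM, a transcript's length-corrected share of its library scaled to a fixed total. All 6 libraries went through staining and sorting. Separate cultures or sorts are not stated, so a p-value here reflects the spread of these particular libraries, and that spread may be technical.

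As background, the family works in several compartments. ALDH1A1 and ALDH1A3 make retinoic acid from retinal in the cytosol and account for much of the ALDH activity that is used to enrich stem-like cells from breast tissue and tumours, and ALDH9A1 is a cytosolic enzyme of aminoaldehydes that serves carnitine synthesis. ALDH2 and ALDH1B1 clear acetaldehyde and lipid aldehydes in the mitochondrial matrix, where ALDH4A1 ends proline breakdown and ALDH18A1 starts proline synthesis from glutamate. ALDH3A2 oxidises fatty aldehydes at the endoplasmic reticulum, ALDH3B1 acts on lipid aldehydes at membranes, and ALDH7A1, an enzyme of lysine breakdown, occurs in the cytosol, the nucleus and mitochondria.

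The TPM columns sum to 1000000 in each library, so the depth of a library is unknown and counting error cannot be given. Transcripts of the mitochondrial genome took 9.99% to 11.2% of TPM in binding libraries and 2.98% to 3.38% in non-binding libraries. The median log2 change over the 15574 tested genes was 0.36, so changes of the members are also given relative to that median. Of the line's markers VIM, CD44, AXL, MSN, CAV1 and SPARC, all 6 were tested, and their summed level was 2125 to 2218 TPM in the binding and 1815 to 1893 TPM in the non-binding libraries. AXL, CAV1 and CD44 were higher in the binding cells, at log2 changes of 0.98, 0.95 and 0.59. VIM, SPARC and MSN were not called, at log2 changes of 0.16, 0.21 and -0.34. The estrogen receptor gene ESR1, which this line lacks, was listed at 0 in all 6. Of the other luminal markers listed, PGR was under the filter. GATA3, FOXA1 and ERBB3 were present in both groups, at means of 13.3, 4.65 and 3.79 TPM over the 6 libraries. A list of 16 epidermal markers (KRT1, KRT2, KRT5, KRT10, KRT14, DSG1, DSC1, PKP1, loricrin, FLG, FLG2, IVL, SBSN, KRTDAP, CALML5 and CASP14) was present in both groups. It summed to 1848 to 3478 TPM in the binding and 4165 to 5877 TPM in the non-binding libraries, with 9 of 16 lower in the binding cells, none higher and none at 0. Over all tested genes 7.12% were lower and 19.6% higher. These are not markers of the labelled line, and their part in the results on the dehydrogenases was not tested. In these bulk libraries fewer cells of a type and less RNA per cell cannot be told apart.

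The promoters of 3 members that were higher in the binding cells and whose window held no annotated exon are shown, since these genes were called in the same direction. Each stretch is the 250 bases before the RefSeq gene start (GRCh38.p14), 5′ to 3′ on the gene's strand: chr11:68008297-68008546 on the plus strand for ALDH3B1, chr10:95656712-95656961 on the minus strand for ALDH18A1 and chr17:19647886-19648135 on the plus strand for ALDH3A2. Capitals mark the E-box CACGTG, a site class bound by basic helix-loop-helix factors.
ALDH3B1: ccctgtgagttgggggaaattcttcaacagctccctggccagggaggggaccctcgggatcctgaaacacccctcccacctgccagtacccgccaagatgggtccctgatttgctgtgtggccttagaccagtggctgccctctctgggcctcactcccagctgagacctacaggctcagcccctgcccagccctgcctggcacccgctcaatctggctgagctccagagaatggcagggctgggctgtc
ALDH18A1: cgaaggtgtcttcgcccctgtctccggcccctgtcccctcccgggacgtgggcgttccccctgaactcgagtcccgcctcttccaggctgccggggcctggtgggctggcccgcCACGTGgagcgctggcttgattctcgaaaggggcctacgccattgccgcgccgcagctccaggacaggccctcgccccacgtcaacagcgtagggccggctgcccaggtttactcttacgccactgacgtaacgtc
ALDH3A2: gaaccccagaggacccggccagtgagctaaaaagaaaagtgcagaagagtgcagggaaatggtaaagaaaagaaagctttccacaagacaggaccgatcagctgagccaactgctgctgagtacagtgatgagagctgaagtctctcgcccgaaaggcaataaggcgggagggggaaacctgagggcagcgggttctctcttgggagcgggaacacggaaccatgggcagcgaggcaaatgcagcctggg
In these windows both strands were searched for the antioxidant response element core TGACNNNGC, the GC box GGGCGG, the TATA box with the letters TATAAA, the CCAAT box and the E-box. The E-box of ALDH18A1 was the 1 match among the 3 stretches. Of all 35116 RefSeq promoter windows of this length 6.34% held the E-box, 10.9% the antioxidant response element core, 42.6% the GC box, 10.7% the TATA box and 32.0% the CCAAT box, each motif being counted on its own whether or not it overlaps another. A match is a description of the letters only. Of the 10 members, 9 had an entry in the RefSeq promoter table; ALDH2 did not.

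Among the 10 genes, 9 reached the filter of 1 TPM in at least 3 libraries and were tested by limma on log2(TPM + 1), and 5 of them were higher in the binding cells: ALDH3B1, ALDH7A1, ALDH3A2, ALDH18A1 and ALDH2. No member was lower. ALDH9A1, ALDH1B1, ALDH4A1 and ALDH1A3 did not pass, and ALDH1A1 was too low to be tested. Over all tested genes 26.7% passed the same threshold (an adjusted p of 0.05, Benjamini-Hochberg over the whole table), 19.6% being higher and 7.12% lower. In 7 of the 9 members the groups did not overlap, with the binding libraries on top. Over all tested genes the groups did not overlap in 52.2%, with the binding libraries on top in 38.6%. The median log2 change of the 9 was 0.64, beside 0.36 over all genes. When the libraries were shifted to share 1 median (the common median), 2 members passed (ALDH3B1 and ALDH7A1), and under quantile normalization 1 passed (ALDH3B1). Over all tested genes 18.3% passed under the common median and 15.7% under quantile normalization. Without non-binding replicate 2 and without non-binding replicate 3 no member passed, and over the whole table the genes higher then numbered 280 and 58, against 3047 with all libraries.

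**Figure D1:**
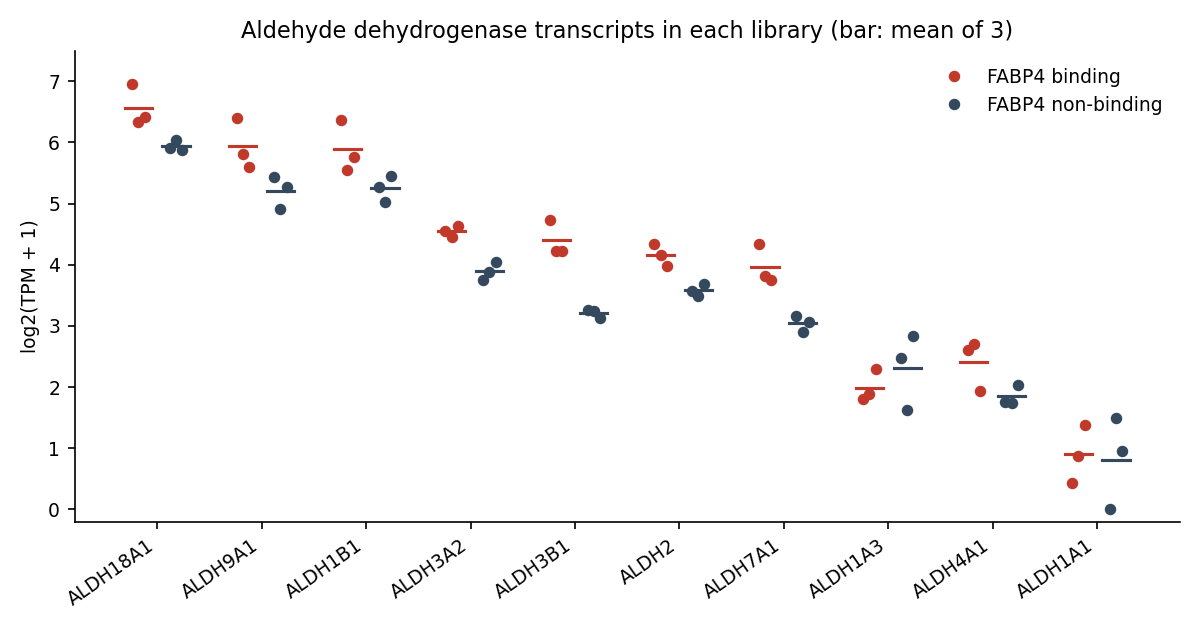
Level of each of the 10 aldehyde dehydrogenases as log2(TPM + 1), a scale on which 0 is a listed 0, in the 3 FABP4 binding (red, left) and 3 FABP4 non-binding (dark, right) libraries, with a bar at the mean, ordered by mean level. In ALDH18A1, ALDH9A1, ALDH1B1, ALDH3A2, ALDH3B1, ALDH2 and ALDH7A1 the 2 groups do not overlap.

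TPM corrects for length, so levels can be set beside each other between genes. The length used for each gene is not stated, and the order of genes close in level may depend on it. ALDH18A1 was the most abundant member at a mean of 78.2 TPM over the 6 libraries and exceeded ALDH9A1 (49.1 TPM) in 6 of 6. ALDH9A1 and ALDH1B1 (48.7 TPM) could not be ordered, each being the higher in 3 libraries. ALDH3A2 followed at 18.2 TPM, below ALDH1B1 in all 6 and above ALDH3B1 in 5 of 6. The order of ALDH3B1 (14.3 TPM) and ALDH2 (14.0 TPM) followed the groups: ALDH3B1 was the higher in all 3 binding libraries and ALDH2 in all 3 non-binding libraries. ALDH2 exceeded ALDH7A1 (11.1 TPM) in 5 of 6. ALDH1A3 (3.64 TPM) and ALDH4A1 (3.54 TPM) also split 3 to 3, and ALDH1A1 was last at 0.925 TPM, below ALDH4A1 in every library.

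Neither cytosolic retinal dehydrogenase was called. ALDH1A1 (ENSG00000165092, chromosome 9, 72900662 to 73080442, hg38) was listed at 0.348, 0.837 and 1.62 TPM in binding replicates 1, 2 and 3, against 0, 1.82 and 0.930 TPM in non-binding replicates 1, 2 and 3. All 3 binding values lay inside the non-binding range, and the gene was under the filter. ALDH1A3 (ENSG00000184254, chromosome 15, 100877714 to 100916626) had 2.49, 2.68 and 3.89 TPM in the binding libraries, against 4.57, 2.10 and 6.12 TPM in the non-binding ones. Non-binding replicate 2 was below all 3 binding libraries and the other two were above them. The log2 change was -0.32 (SE 0.35, 95% interval -1.12 to 0.47, adjusted p = 0.490 by limma), or -0.68 relative to the median of all genes. Without non-binding replicate 2 the log2 change itself was -0.66, and without non-binding replicate 3 it was -0.06. An antisense gene, AC015712.2, overlaps 27.5% of the exon length of ALDH1A3. Strand-specific counting is not stated, so whether reads in the shared part were assigned to the right gene is unknown. AC015712.2 was itself listed at 0.588 TPM or less in every library.

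ALDH9A1 (ENSG00000143149, chromosome 1, 165662216 to 165698863), the third cytosolic member, had 83.6, 54.9 and 47.5 TPM in the binding libraries, against 42.0, 29.3 and 37.6 TPM in the non-binding ones. All 3 binding values were higher, binding replicate 1 by far the highest. Its log2 change of 0.73 (SE 0.23, 95% interval 0.19 to 1.27; 0.37 relative to all genes) stopped just short of the threshold (limma, adjusted p = 0.0515). It passed with the stricter filter of 5 TPM (adjusted p = 0.0361 by limma), with TPM rescaled without the mitochondrial genome (adjusted p = 0.0288) and with the replicate number as a block (adjusted p = 0.0335). It did not pass in the other 11 of 14 alternatives. Its log2 change was 0.41 under the common median and 0.49 under quantile normalization (limma, adjusted p = 0.166 and 0.128), and 0.50 without binding replicate 1.

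Of the 2 membrane-associated members, ALDH3B1 (ENSG00000006534, chromosome 11, 68008578 to 68029282) had the largest log2 change of the 9 tested members. It had 25.7, 17.7 and 17.8 TPM in the binding libraries, against 8.56, 8.48 and 7.73 TPM in the non-binding ones. The lowest binding value was above the highest non-binding value, and the non-binding libraries were close together. The mean was 20.4 ± 4.58 TPM in the binding cells, against 8.26 ± 0.460 TPM in the non-binding cells (SD, n = 3 each), 2.47 times higher, and the log2 change of 1.19 lay at the 97.2 percentile of all tested genes (SE 0.20; 0.83 relative to all genes; limma, adjusted p = 0.0136). It also passed under the common median (log2 change 0.87) and under quantile normalization (0.87), and was narrowly lost without non-binding replicate 2 and without non-binding replicate 3 (limma, adjusted p = 0.0503 and 0.0559).

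ALDH3A2 (ENSG00000072210, chromosome 17, 19648136 to 19677598), the fatty aldehyde dehydrogenase whose loss causes Sjögren-Larsson syndrome, had 22.4, 21.0 and 23.7 TPM in the binding libraries, against 12.5, 13.8 and 15.6 TPM in the non-binding ones. Its replicates were even in both groups and did not overlap. The log2 change was 0.65 (SE 0.16; 0.29 relative to all genes; limma, adjusted p = 0.0274). The call was lost with the common median (log2 change 0.33) and quantile normalization (0.32), and without any 1 of binding replicates 2 and 3 or the 3 non-binding replicates (limma, adjusted p = 0.0527 to 0.0756).

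**Figure D2:**
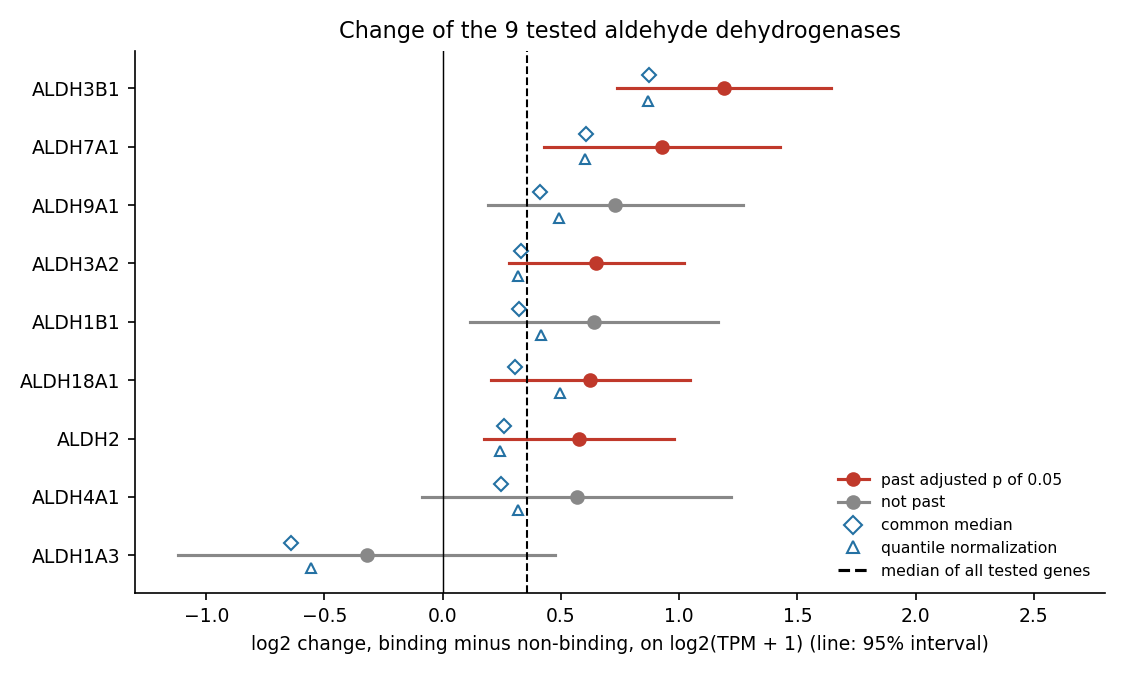
Log2 change, binding minus non-binding, of the 9 tested members by limma on log2(TPM + 1), with 95% intervals (lines); red marks those past an adjusted p of 0.05. Diamonds give the change with a common median, triangles with quantile normalization, and the dashed line the median of all tested genes at 0.36; ALDH3B1 at 1.19 is furthest right and ALDH1A3 at -0.32 is the 1 member left of 0.

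ALDH3B1 has a close paralogue, ALDH3B2, also on chromosome 11 (67662162 to 67681200). The transcripts of the pair share few identical stretches: 0.512% of the 50-base words in ALDH3B1 transcripts also occur in ALDH3B2. ALDH3B2 is no member of the 10 and was lower in the binding cells. It had 7.06, 16.9 and 8.18 TPM in binding replicates 1, 2 and 3, against 24.95, 22.2 and 17.5 TPM in the non-binding ones, a log2 change of -1.02 (SE 0.31; limma, adjusted p = 0.0443). Binding replicate 2 came close to the lowest non-binding library. The call was lost without any 1 library other than binding replicate 2 (limma, adjusted p = 0.0776 to 0.116), without a filter, without the intensity trend and with TPM rescaled without the mitochondrial genome. Summed over the pair, the level was 26.0 to 34.7 TPM in the binding libraries and 25.2 to 33.5 TPM in the non-binding ones. ALDH3B1 made up 78.5%, 51.1% and 68.5% of that sum in binding replicates 1, 2 and 3, against 25.6%, 27.7% and 30.7% in the non-binding ones, so the more abundant gene of the pair was ALDH3B1 in all binding libraries and ALDH3B2 in all non-binding libraries. The epidermal list was lower in the binding cells as well. It was highest in replicate 2 of both groups (3478 TPM in the binding and 5877 TPM in the non-binding library), while ALDH3B2 was highest in replicate 2 of the binding and in replicate 1 of the non-binding libraries. The part of the list in the fall of ALDH3B2 was not tested.

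**Figure D3:**
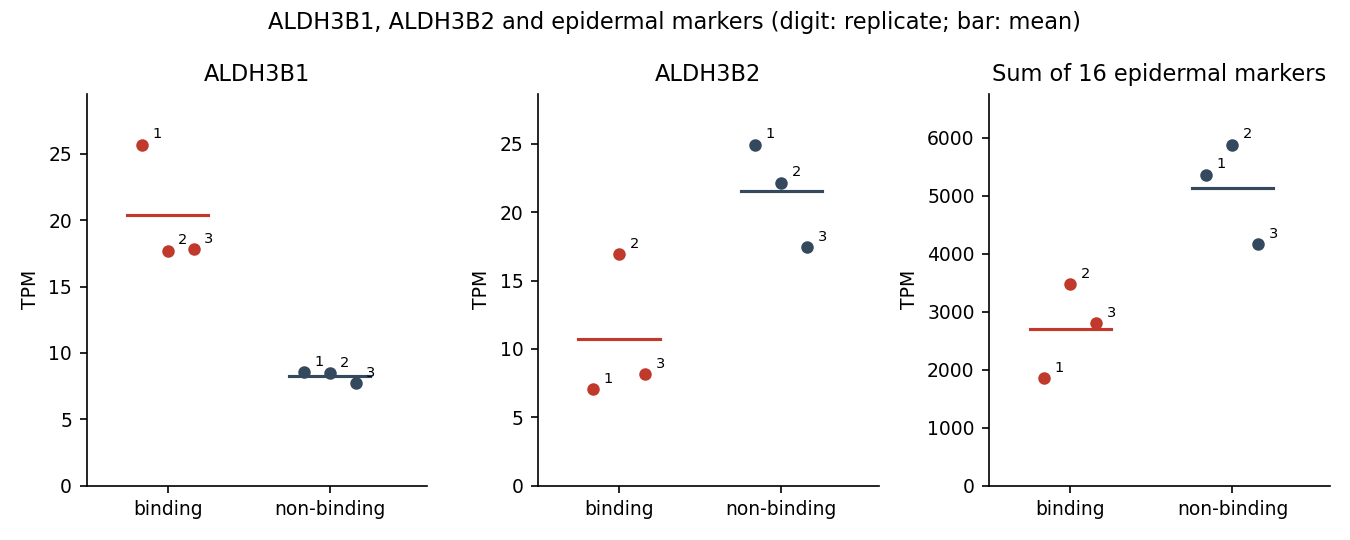
TPM of ALDH3B1, of ALDH3B2 and of the 16 epidermal markers summed, in each binding (left) and non-binding (right) library, with the replicate number and a bar at the mean. ALDH3B1 lies between 17.7 and 25.7 TPM in binding and between 7.73 and 8.56 TPM in non-binding libraries, while the other two panels run the other way.

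Of the 4 mitochondrial members, ALDH18A1 and ALDH2 were higher, while ALDH1B1 and ALDH4A1 did not pass; the 4 log2 changes lay between 0.57 and 0.64. ALDH18A1 (ENSG00000059573, chromosome 10, 95605929 to 95656706), the delta-1-pyrroline-5-carboxylate synthase, had 123, 80.05 and 84.2 TPM in the binding libraries, against 59.2, 65.2 and 57.7 TPM in the non-binding ones. Every binding library was above every non-binding library. The log2 change was 0.62 (SE 0.18; 0.27 relative to all genes; limma, adjusted p = 0.0406). It was lost under the common median (log2 change 0.31), quantile normalization (0.50), no filter and no intensity trend, and without any 1 of binding replicate 3 or the 3 non-binding replicates (limma, adjusted p = 0.0606 to 0.114).

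ALDH2 (ENSG00000111275, chromosome 12, 111766887 to 111817529), the main acetaldehyde-clearing enzyme, had 19.2, 16.9 and 14.8 TPM in the binding libraries, against 10.9, 10.2 and 11.9 TPM in the non-binding ones. Every binding value was again above every non-binding value. Its log2 change of 0.58 (SE 0.17; 0.22 relative to all genes) was the smallest of the 5 called (limma, adjusted p = 0.0438). No fit with a library removed kept that call, nor did those without a filter, without the intensity trend or with the replicate block, and it was lost under either rescaling to a common distribution (log2 change 0.26 under the common median and 0.24 under quantile normalization). ALDH1B1 (ENSG00000137124, chromosome 9, 38392664 to 38398661), its close relative, had 81.5, 45.7 and 53.2 TPM in the binding libraries, against 37.5, 31.8 and 42.8 TPM in the non-binding ones. The groups did not overlap, but the lowest binding value lay near the highest non-binding value, and the log2 change of 0.64 (SE 0.23; 0.28 relative to all genes) did not pass (limma, adjusted p = 0.0678). It passed with the filter of 5 TPM and with TPM rescaled without the mitochondrial genome (limma, adjusted p = 0.0493 and 0.0372) and in none of the other 12 of 14 alternatives. Its log2 change was 0.32 under the common median, and 0.40 without binding replicate 1. ALDH1B1 was about as abundant as ALDH9A1 and exceeded ALDH2, the other acetaldehyde enzyme, in all 6 libraries.

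ALDH4A1 (ENSG00000159423, chromosome 1, 18871430 to 18902781) had 5.11, 5.49 and 2.81 TPM in the binding libraries, against 2.38, 2.34 and 3.11 TPM in the non-binding ones. Binding replicate 3 fell inside the range of the non-binding libraries, and the log2 change of 0.57 did not pass (SE 0.28, 95% interval -0.09 to 1.22; 0.21 relative to all genes; limma, adjusted p = 0.155). A same-strand gene, AL080251.1, covers 41.1% of its exon length and was listed at 0 in all 6 libraries, so how shared reads were assigned bears on this value. ALDH7A1 (ENSG00000164904, chromosome 5, 126531200 to 126595418), the antiquitin of lysine breakdown, had 19.3, 13.1 and 12.4 TPM in the binding libraries, against 7.96, 6.44 and 7.37 TPM in the non-binding ones. The groups were well apart. Its mean was 14.9 ± 3.80 TPM in the binding cells, against 7.26 ± 0.764 TPM in the non-binding cells (SD, n = 3 each), 2.06 times higher, with a log2 change of 0.93 (SE 0.22; 0.57 relative to all genes; limma, adjusted p = 0.0242). It passed with the common median (log2 change 0.61; limma, adjusted p = 0.0462) and was lost with quantile normalization (adjusted p = 0.0508), without a filter, without non-binding replicate 2 (adjusted p = 0.0738) and without non-binding replicate 3 (adjusted p = 0.0691). Its pseudogene ALDH7A1P1 shares 1.84% of the gene's 50-base words.

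The ratios of group means, binding over non-binding, were further apart among the cytosolic enzymes than among the mitochondrial ones. They were 1.02 for ALDH1A1, 0.709 for ALDH1A3 and 1.71 for ALDH9A1, and between 1.54 and 1.71 in the 4 mitochondrial enzymes. The ratios of ALDH1A1 and ALDH1A3 rest on low and variable values. ALDH1A1 averaged 0.933 ± 0.639 TPM in binding cells, against 0.916 ± 0.910 TPM in non-binding cells (SD, n = 3 each). ALDH1A3 averaged 3.02 ± 0.755 TPM in binding cells, against 4.26 ± 2.03 TPM in non-binding cells (SD, n = 3 each). The groups overlapped in both genes, so a difference between the compartments cannot be read from these ratios. ALDH1A1, ALDH1A3 and ALDH9A1 summed to 86.4, 58.5 and 53.0 TPM in binding replicates 1, 2 and 3, against 46.6, 33.2 and 44.7 TPM in the non-binding ones. ALDH2, ALDH1B1, ALDH4A1 and ALDH18A1 summed to 229, 148 and 155 TPM in the binding libraries, against 110.0, 109.5 and 115 TPM in the non-binding ones. Both sums were higher in every binding library. The ratio of group means was 1.59 for the cytosolic sum, which is mostly ALDH9A1, and 1.59 for the mitochondrial sum. The mitochondrial sum averaged 2.70 ± 0.201 in binding and 2.75 ± 0.491 in non-binding cells as a multiple of the cytosolic sum (SD, n = 3 each), a difference smaller than the spread between replicates; no test was made, since the members were chosen with earlier results known. That ratio was 2.65, 2.53 and 2.93 in binding replicates 1, 2 and 3, against 2.36, 3.30 and 2.58 in the non-binding ones, so the binding values lay inside the non-binding range. Each sum rests mainly on 1 gene: ALDH9A1 made up 84.2% to 96.7% of the cytosolic sum over the 6 libraries and ALDH18A1 made up 49.9% to 59.5% of the mitochondrial sum. The 2 membrane-associated genes came to 42.8 ± 4.82 TPM in the binding and 22.2 ± 1.13 TPM in the non-binding cells (SD, n = 3 each), a ratio of 1.93.

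**Figure D4:**
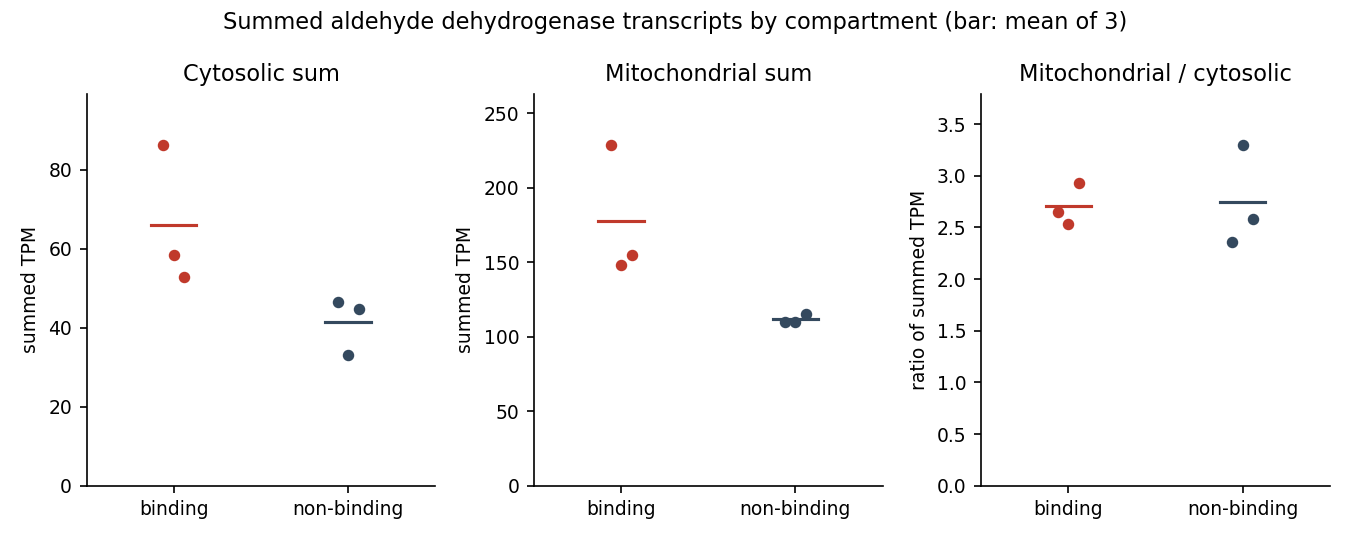
Summed TPM of the 3 cytosolic and the 4 mitochondrial members and the ratio of the sums, in each binding (left) and non-binding (right) library, with a bar at the mean; all axes start at 0. Both sums are higher in the binding libraries, and the ratio overlaps between groups.

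The family has 9 further genes in the table, of which 5 were tested. ALDH16A1, a member without known catalytic activity in mammals, was higher at 24.6, 21.8 and 18.5 TPM in the binding libraries, against 13.4, 9.86 and 11.6 TPM in the non-binding ones (log2 change 0.84, SE 0.19; limma, adjusted p = 0.0221). Under the common median and under quantile normalization it missed the threshold (limma, adjusted p = 0.0561 and 0.0602), as it did without non-binding replicate 2 and without non-binding replicate 3 (adjusted p = 0.0700 and 0.0675). ALDH3B2, described above, was lower. ALDH5A1, ALDH6A1 and ALDH1L2, all mitochondrial, did not pass, with log2 changes of 0.75, 0.57 and 0.49 (limma, adjusted p = 0.0513, 0.0672 and 0.161). ALDH1A2, ALDH1L1, ALDH3A1 and ALDH8A1 were under the filter.

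Around ALDH18A1 and ALDH4A1, PYCR1 and OAT, which serve proline synthesis, were higher and the glutamate dehydrogenases GLUD1 and GLUD2 were lower. Of 8 tested genes of proline and glutamate metabolism, 3 were higher, 3 lower and 2 did not pass, where 19.6% of all tested genes were higher and 7.12% lower. The median of their log2 changes was 0.28, beside 0.36 over all genes. PYCR1, which completes proline synthesis in mitochondria after ALDH18A1, had 204, 125 and 140 TPM in the binding libraries, against 82.5, 62.9 and 90.5 TPM in the non-binding ones (log2 change 0.97, SE 0.22; limma, adjusted p = 0.0222). OAT, which makes the same pyrroline intermediate from ornithine, had a mean of 61.4 ± 3.80 TPM in binding cells, against 37.5 ± 5.27 TPM in non-binding cells (SD, n = 3 each; log2 change 0.70; limma, adjusted p = 0.0205). In both genes the groups did not overlap. GLUD1, the mitochondrial glutamate dehydrogenase, had a mean of 429 ± 47.7 TPM in binding cells, against 595 ± 20.8 TPM in non-binding cells (SD, n = 3 each; log2 change -0.48; limma, adjusted p = 0.0310), and GLUD2, a retrocopy of GLUD1 whose reads are hard to assign, passed narrowly (log2 change -0.68; limma, adjusted p = 0.0498). Without binding replicate 1 the change of GLUD2 was -0.42. PYCR3 and GLUL did not pass, and PRODH, the first enzyme of proline breakdown, was listed at 0 in 5 of 6 libraries. PYCR1 passed under the common median and under quantile normalization, while OAT was lost under the first of these and GLUD1 and GLUD2 under the second. The calls of PYCR1, OAT, GLUD1 and GLUD2 were all lost when non-binding replicate 2 or 3 was removed (limma, adjusted p = 0.0565 to 0.117). OAT was also lost without binding replicate 3, and GLUD1 and GLUD2 without any 1 library other than binding replicate 1, without a filter, without the intensity trend and with TPM rescaled without the mitochondrial genome. GLUD2 was lost as well with a pseudocount of 0.1 and with the replicate block (limma, adjusted p = 0.0535 and 0.0517).

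**Figure D5:**
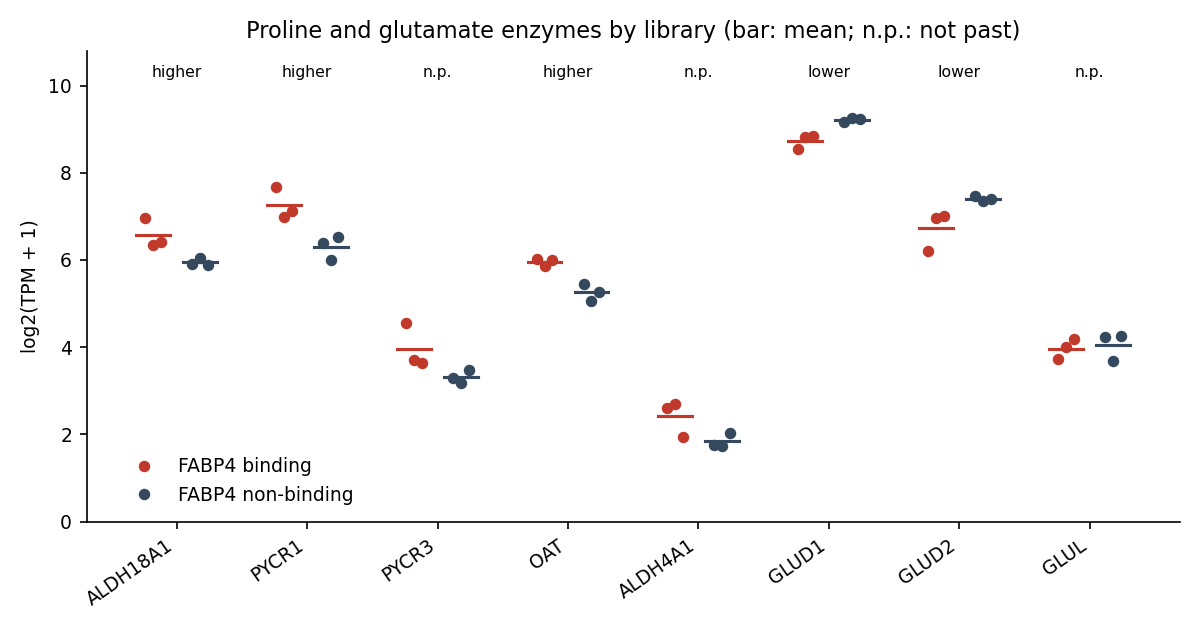
Level as log2(TPM + 1) of ALDH18A1, ALDH4A1, PYCR1, PYCR3, OAT, GLUD1, GLUD2 and GLUL in the 3 binding (red, left) and 3 non-binding (dark, right) libraries, with a bar at the mean and the limma call above each gene. ALDH18A1, PYCR1 and OAT are higher in the binding libraries and GLUD1 and GLUD2 are lower.

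Genes that handle retinoids, the substrates of ALDH1A1 and ALDH1A3, included 2 higher and none lower of 11 tested, where 19.6% of all tested genes were higher and 7.12% lower. Their median log2 change was 0.18, beside 0.36 over all genes. RETSAT, which saturates retinol, had a mean of 53.0 ± 8.79 TPM in binding cells, against 27.5 ± 2.41 TPM in non-binding cells (SD, n = 3 each; log2 change 0.91; limma, adjusted p = 0.0151). DHRS4, a carbonyl and retinal reductase with near-identical neighbouring copies, had 32.6 ± 9.46 TPM in binding cells, against 16.6 ± 4.63 TPM in non-binding cells (SD, n = 3 each; log2 change 0.93; limma, adjusted p = 0.0350). The retinoic acid carrier CRABP2 had a mean of 40.9 ± 8.54 TPM in binding cells, against 37.3 ± 7.30 TPM in non-binding cells, and the receptor RARA had a mean of 41.6 ± 1.98 TPM in binding cells, against 49.5 ± 5.88 TPM in non-binding cells (SD, n = 3 each). Neither passed (limma, adjusted p = 0.667 and 0.225), and the sign of CRABP2 turned under both rescalings to a common distribution and without non-binding replicate 3. RETSAT was lost without non-binding replicate 2 and without non-binding replicate 3 (limma, adjusted p = 0.0503 and 0.0565), and DHRS4 also without either of binding replicates 1 and 3, under both rescalings, without a filter and without the intensity trend (adjusted p = 0.0563 to 0.103).

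Enzymes that interconvert alcohols and carbonyls included 2 higher and 1 lower of 11 tested, where 26.7% of all tested genes were called in either direction. Their median log2 change was 0.34, beside 0.36 over all genes. AKR1B1, aldose reductase, had 142, 90.8 and 90.8 TPM in the binding libraries, against 63.5, 52.9 and 54.5 TPM in the non-binding ones (log2 change 0.88, SE 0.20; limma, adjusted p = 0.0223). AKR7A2, an aldehyde reductase, had a mean of 47.6 ± 6.26 TPM in binding cells, against 24.5 ± 1.99 TPM in non-binding cells (SD, n = 3 each; log2 change 0.93; limma, adjusted p = 0.0136). The lower gene, AKR1B10, had 3.13, 2.05 and 0.660 TPM in the binding libraries, against 6.87, 3.47 and 8.61 TPM in the non-binding ones (log2 change -1.34, SE 0.42; limma, adjusted p = 0.0477). Its call held in 4 of 13 alternatives: it was lost without any 1 library other than binding replicate 1, with a pseudocount of 0.1, without a filter, without the intensity trend and with the replicate block. ADH5 and AKR1A1 did not pass, at log2 changes of 0.45 and 0.28, the second of which was -0.04 with the common median. Both AKR1B1 and AKR7A2 were lost without non-binding replicate 3 (limma, adjusted p = 0.0704 and 0.0564), and AKR1B1 also without non-binding replicate 2 (adjusted p = 0.0713).

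Pathways that produce aldehydes or are otherwise linked to the members included 3 higher and none lower of 14 tested, near the 19.6% of all tested genes that were higher. Their median log2 change was 0.32, beside 0.36 over all genes. AASS, which opens the lysine pathway upstream of ALDH7A1, had 15.5, 11.2 and 9.77 TPM in the binding libraries, against 6.61, 5.65 and 6.73 TPM in the non-binding ones (log2 change 0.82; limma, adjusted p = 0.0317). DHTKD1, further down that pathway, had a mean of 15.8 ± 3.58 TPM in binding cells, against 7.95 ± 2.37 TPM in non-binding cells (SD, n = 3 each; log2 change 0.92; limma, adjusted p = 0.0345). SPHK1 phosphorylates sphingosine, from which the fatty aldehyde that ALDH3A2 oxidises is later released, and had a mean of 12.2 ± 0.247 TPM in binding cells, against 6.66 ± 1.16 TPM in non-binding cells (SD, n = 3 each; log2 change 0.80; limma, adjusted p = 0.0249). All 3 were lost under both rescalings to a common distribution, without any 1 of the non-binding replicates and without 2 of the 3 binding replicates, taken 1 at a time. AASS and DHTKD1 were lost without a filter too, and DHTKD1 without the intensity trend. The polyamine enzymes SAT1 and SMOX and the fatty acyl-CoA reductase FAR1, the most abundant tested genes of the list, did not pass at log2 changes of 0.00, -0.20 and -0.19.

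Across the 6 libraries ALDH1A3 stood apart from the other 8 tested members. The 28 pairs among those 8 had a Pearson r of log2(TPM + 1) between 0.68 and 0.98 over 6 libraries, the closest being ALDH3B1 and ALDH7A1 (r = 0.978). The 8 pairs with ALDH1A3 lay between -0.54 and -0.13. These points share their library and the group difference. Of 12049 other tested protein-coding genes, RABIF, SESTD1 and HOXD1 were most like ALDH1A3 (r = 0.995, 0.989 and 0.976), and 58 genes reached r = 0.9. The genes most like ALDH2 were ARHGEF28, ATP5IF1 and ZFP82 (r = 0.998, 0.998 and 0.997), and 2867 genes reached r = 0.9.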

How the data were processed

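RNA of 6 libraries from sorted MDA-MB-231 cells was sequenced after ribosomal RNA depletion and random priming, per the labels' protocols. Each column of the table was tied to its sample through the library name in the labels. The deposited values are TPM, since each column sums to 1000000, and so carry no depth. The genome was hg38, per the submitters' processing notes, with aligner, quantifier and annotation not given in the sources used here. As TPM are shares, more mitochondrial RNA in a library lowers every other value.

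The 15574 genes that reached 1 TPM in 3 or more libraries were tested with limma 3.58.1 in R 4.3.3 on log2(TPM + 1), using its trend option and no covariate, and p-values were adjusted by Benjamini-Hochberg over all of them at 0.05. Fold changes on this scale understate low genes. Alternatives were a pseudocount of 0.1, other filters, a common median, quantile normalization, rescaling, no trend, a replicate block and leaving out each library. GENCODE release 29 gave hg38 coordinates and exon overlaps. Compartments are textbook assignments. The alternatives for the pathway lists were chosen after seeing the data.

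Named genes were all 10 members and, per pathway list, the 3 most abundant tested genes plus up to 4 called genes with the smallest p; for ALDH1A3 and ALDH2 also the 3 genes most like each by Pearson r. PYCR3, GLUL, PRODH, ALDH5A1, ALDH1L2 and the untested family genes were named after their values were seen. Some genes of the lists are counted but not reported by name here. Members and lists were chosen with earlier results of these data known. Further lists of markers gave no call among leukocyte (0 of 4 tested), fibroblast (0 of 5) and luminal genes (0 of 3), no tested endothelial or adipocyte gene, and 3 of 6 mesenchymal line genes higher. The shares over all tested genes were 19.6% higher and 7.12% lower.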

Additional observations from a re-analysis of the deposited data

How the results depend on the processing

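The 9 tested members kept their sign in all 124 values computed under the 14 alternatives. The number of members higher was 5, with 7 under the filter of 5 TPM (7 tested), 7 under rescaling without the mitochondrial genome, 2 without a filter, 2 under the common median, 1 under quantile normalization, 3 without the intensity trend, and 0 to 4 when 1 library was left out; no member was lower in any fit. Of all tested genes, 3047 were higher and 1109 lower. Without a filter these were 1373 and 500, under the common median 962 and 1890 (33.7% of calls higher, where 73.3% were), under quantile normalization 1197 and 1246 (49.0% higher) and without the trend 1992 and 567; rescaling without the mitochondrial genome gave 4477 and 813 (84.6% higher). Leaving out 1 library gave 58 to 1975 higher and 6 to 888 lower. The share of tested genes called in either direction moved as well, from 26.7% in the main fit. It was 44.5% of 10451 genes under the filter of 5 TPM (3422 higher and 1224 lower). Under rescaling it was 33.6% of 15756 genes, and without a filter 6.98% of 26817. The share was 18.3% under the common median, 15.7% under quantile normalization, 16.4% without the trend and 0.411% to 18.4% with 1 library left out. In the main fit 19.6% of all tested genes were higher and 7.12% lower. The 5 pathway lists, with 5, 11, 8, 11 and 14 genes tested, held 11 higher and 5 lower genes in that fit. Their higher count was 5 under the common median, 6 under quantile normalization, 19 under rescaling and 0 to 9 with 1 library left out. Their lower count was 3 with a pseudocount of 0.1, with quantile normalization and with the replicate block, 1 without a filter and without the trend, 2 with rescaling, 7 under the common median and 0 to 4 with 1 library left out. The cause was not tested. With a replicate block 3174 genes were higher and 1132 lower, and 5 members passed. The deviations of same-numbered libraries from their group means had correlations of 0.03, -0.02 and 0.03. Not every library correlated best with its own number. These values cannot decide whether same-numbered libraries shared a culture or a sort, which is not stated. AKR1A1 turned to -0.0382 under the common median. CRABP2 turned to -0.19 under the common median and -0.14 under quantile normalization, and lay between -0.0432 and 0.306 when 1 library was left out. SAT1, at -0.0011, turned to 0.0848 under quantile normalization and 0.112 under rescaling, and lay between -0.0302 and 0.0456 when 1 library was left out. All 27 alternative values of the compartment sums and their ratio lay within the replicate spread. Depth is unknown, which limits what can be said of ALDH1A1.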
